A study of Mus musculus with 6 samples.

Results

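The 10 genes described here encode members of the Adamts family: Adamts1, Adamts2, Adamts3, Adamts4, Adamts5, Adamts9, Adamts10, Adamts12, Adamts14 and Adamts15. They were taken by symbol from the 43472 gene symbols counted in each library, and all 10 passed the filter on low counts that left 16152 genes for testing. Another 9 Adamts protease genes were counted in these libraries and are used for comparison.

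The libraries were made from whole intervertebral discs (IVDs) of the thoracic and lumbar spine of mice at postnatal day 20, with strain given as C57B6/J. The mutant mice were Col2Cre;Adgrg6 f/f and gave 3 libraries, the controls gave another 3, and each library was a pool of discs from 2 to 3 mice. Col2Cre drives Cre recombinase from the type II collagen promoter in cartilage-forming cells, so that the adhesion receptor Adgrg6 (Gpr126) is deleted from the disc lineage before birth. The controls are wild type by genotype label, Col2Cre controls by title and Cre (-) littermates in the methods, and whether they carry the floxed allele is not given in the sources used here. No sex is given.

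Adamts proteases are secreted zinc metalloproteinases with thrombospondin type 1 repeats, which anchor them in the extracellular matrix. Some, called aggrecanases or proteoglycanases, cut aggrecan and versican, the large proteoglycans that hold water in cartilage and in the nucleus pulposus. Others, the procollagen N-proteinases, remove the N-terminal propeptide of fibrillar procollagens so that mature fibrils can form. Loss of aggrecan through Adamts activity is a known feature of disc and joint degeneration, and the comparison of mutant with control IVDs addresses whether catabolic genes had changed before visible disease.

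The libraries held 9061491 to 12017008 counts on genes. Expression is given in CPM, the counts of a gene scaled to a common library total, with library sizes adjusted by TMM. Fold changes come with their standard error (SE) from the quasi-likelihood test of edgeR. Gpr126 was at 109 ± 14.7 CPM in control and 122 ± 16.1 CPM in mutant libraries (SD, n = 3 each). It was thus not lower in mutant libraries (log2 fold change 0.17, SE 0.18, edgeR unadjusted p = 0.367). These counts cover the whole gene, so the deleted part was not measured apart. Whether RNA from the rest of the gene remains after deletion was not tested, and the genotype labels could not be checked. Markers of chondrocytes summed to 87121 CPM in control replicate 3 and to between 120449 and 151546 CPM in the other 5 libraries. Col2a1 held most of this sum, at 62708 CPM in control replicate 3 and 98509 to 124063 CPM in the other 5. For the nucleus pulposus, 8 of 8 markers were detected. Control replicate 1 stood apart in skeletal muscle, with 8 markers summing to 4051 CPM compared with 199 to 288 CPM in the other 5 libraries. Markers of neurons and glia summed to 216 to 1638 CPM in control and 899 to 3565 CPM in mutant libraries. The part of these cells in the results below was not tested, and values without control replicate 1 are given where they differ.

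Of the 10 genes, Adamts2 rose and Adamts14 fell in mutant IVDs at an unadjusted p under 0.05. Adamts2 is the main N-proteinase of procollagen I, and Adamts14 is a related N-proteinase. The 2 genes called of 10 compare with 7.21% of all genes tested. After Benjamini-Hochberg adjustment over all genes, 0 of the 10 passed 0.05 in edgeR, DESeq2 or limma-voom, compared with 0.00619% of genes in edgeR. At an unadjusted p under 0.05, DESeq2 also called 2 of the genes, compared with 6.07% of all genes in its fit, and limma-voom called 3, compared with 9.14%. The median log2 fold change of the 10 genes was 0.32, with 6 values above and 4 below 0, and the median of all genes tested was -0.01. The libraries of the groups did not overlap for 4 genes. Adamts4 and Adamts15 were higher in every mutant library, as were 5.45% of all genes, and Adamts3 and Adamts14 were lower in every mutant library, as were 5.96%. In bulk tissue, a change in the number of cells that express a gene and a change in RNA per cell cannot be told apart.

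**Figure D1:**
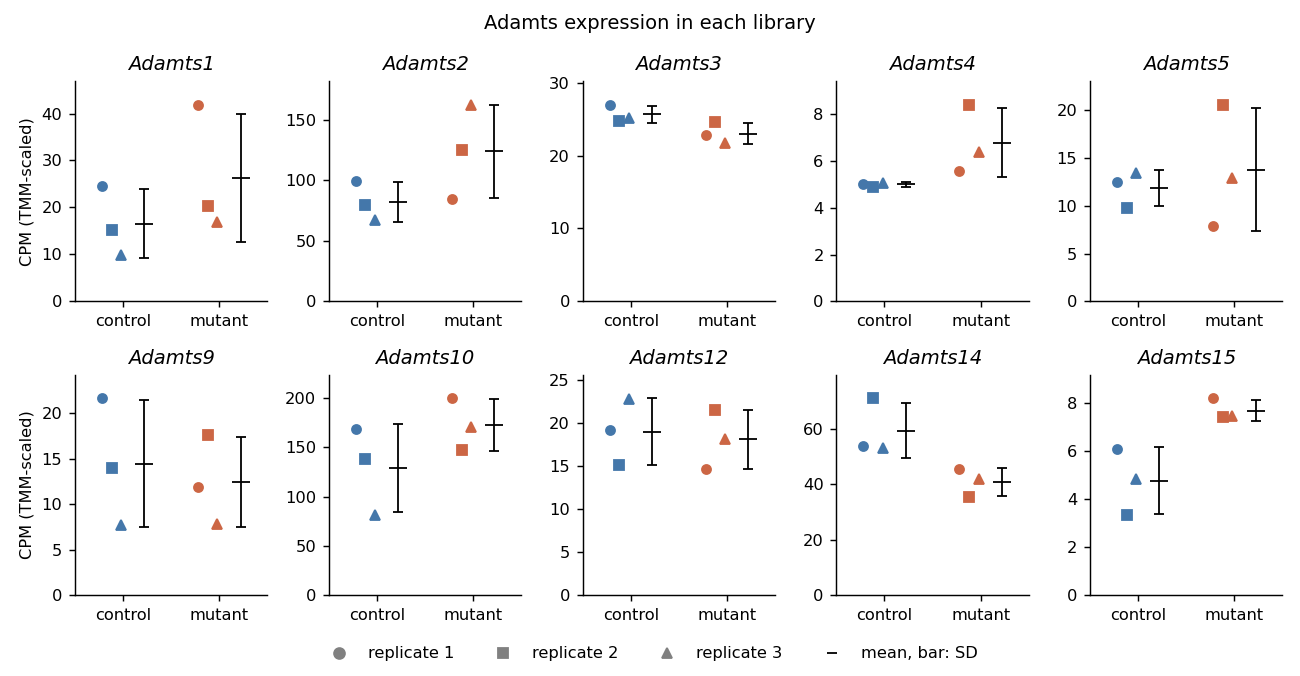
CPM of each of the 10 Adamts genes (vertical axes, TMM-scaled CPM, starting at 0) in 3 control and 3 mutant libraries, with circles, squares and triangles for replicates 1, 2 and 3 and the mean ± SD beside them. Adamts14 lay between 53.2 and 70.9 CPM in control and between 35.4 and 45.4 CPM in mutant libraries, while the groups overlapped for Adamts2.

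The promoters of the 3 procollagen N-proteinase genes are shown because these close relatives included both genes called, in opposite directions. RefSeq promoters on GRCm38.p6, which run from 250 bases before to 50 bases after the transcript start, were matched for 6 of the 10 genes. The other 4, Adamts4, Adamts5, Adamts10 and Adamts15, had no match, so their promoters were not searched for motifs. Capitals mark GC boxes, searched as GGGCGG on both strands, so that the other strand reads CCGCCC, and matches may overlap. The promoter of Adamts2 is at chr11:50601835-50602134 on the plus strand. Those of Adamts14, at chr10:61273370-61273669, and Adamts3, at chr5:89883285-89883584, are on the minus strand.
Adamts2: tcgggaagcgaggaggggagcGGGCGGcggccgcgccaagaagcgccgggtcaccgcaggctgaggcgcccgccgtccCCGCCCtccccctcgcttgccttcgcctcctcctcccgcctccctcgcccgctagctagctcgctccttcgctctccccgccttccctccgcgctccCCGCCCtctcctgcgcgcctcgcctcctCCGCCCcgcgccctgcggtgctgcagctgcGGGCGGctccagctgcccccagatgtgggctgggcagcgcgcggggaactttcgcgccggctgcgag
Adamts14: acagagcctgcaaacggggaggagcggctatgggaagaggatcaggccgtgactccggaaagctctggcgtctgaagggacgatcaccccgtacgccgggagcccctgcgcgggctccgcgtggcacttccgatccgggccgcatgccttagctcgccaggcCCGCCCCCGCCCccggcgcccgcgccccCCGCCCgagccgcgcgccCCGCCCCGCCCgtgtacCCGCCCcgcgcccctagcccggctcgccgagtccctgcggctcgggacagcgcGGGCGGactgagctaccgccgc
Adamts3: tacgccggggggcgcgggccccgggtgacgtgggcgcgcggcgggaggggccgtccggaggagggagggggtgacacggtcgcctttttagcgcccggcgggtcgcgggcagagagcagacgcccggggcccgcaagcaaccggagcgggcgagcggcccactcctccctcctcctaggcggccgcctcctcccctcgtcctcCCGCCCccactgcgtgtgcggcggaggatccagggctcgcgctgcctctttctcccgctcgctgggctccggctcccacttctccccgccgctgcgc

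These promoters had a GC content of 77.3% in Adamts2, 76.7% in Adamts14 and 77.3% in Adamts3, compared with a median of 52.7% over 32851 promoters. They held 5, 7 and 1 GC boxes, respectively. Of the 6 promoters matched, 5 held a GC box (Adamts1, Adamts2, Adamts3, Adamts9 and Adamts14), as did 35.7% of all promoters. A TATA box, searched as TATAAA on both strands, was found in Adamts1 alone of the 6 and in 13.6% of all promoters. Matches to TGANTCA, TGACGTCA and TTCNNNGAA, the letters of AP-1, cAMP response and STAT motifs, were found in 0 of the 6 promoters and in 7.81%, 1.79% and 8.30% of all promoters. The promoters of Adamts2 and Adamts14 were both GC-rich and held the most GC boxes of the 6, although the genes changed in opposite directions.

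Adamts2 (chr11:50602084-50807573) was expressed at 99.3, 80.0 and 66.8 CPM in control replicates 1, 2 and 3 and at 84.9, 125 and 162 CPM in mutant replicates 1, 2 and 3. Mutant replicates 2 and 3 lay above every control library, and mutant replicate 1 lay below control replicate 1. Expression rose 1.51-fold, a log2 fold change of 0.59 (SE 0.25, edgeR unadjusted p = 0.0388, adjusted p = 0.683). The log2 fold change stayed above 0 with any 1 library left out, from 0.36 without mutant replicate 3 to 0.84 without mutant replicate 1. The call was lost without control replicate 2, control replicate 3, mutant replicate 2 or mutant replicate 3, with unadjusted p from 0.0649 to 0.190. It was also lost with library sizes alone, without TMM (log2 fold change 0.50, unadjusted p = 0.0746 from edgeR), a scaling under which the median of all genes moved to -0.13. With replicate number as a block, the log2 fold change was 0.57 and the call was lost (edgeR unadjusted p = 0.0801).

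Adamts14 (chr10:61197112-61273438) was at 53.8, 70.9 and 53.2 CPM in control and at 45.4, 35.4 and 41.8 CPM in mutant replicates 1, 2 and 3. Every mutant library lay below every control library. The log2 fold change was -0.54 (SE 0.18, edgeR unadjusted p = 0.0137, adjusted p = 0.676). It stayed between -0.60 and -0.40 with 1 library left out, but leaving out control replicate 2 gave an unadjusted p = 0.0659 and leaving out mutant replicate 2 an unadjusted p = 0.0555, both from edgeR.

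Adamts3 (chr5:89677087-89883334), an N-proteinase of procollagen II that also activates the lymphatic growth factor VEGF-C, varied least among the 10 genes. Its expression was 27.0, 24.8 and 25.2 CPM in control and 22.8, 24.6 and 21.7 CPM in mutant replicates 1, 2 and 3. The mutant libraries were all below the control libraries, by little, and the log2 fold change was -0.15 (SE 0.16, edgeR unadjusted p = 0.371).

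Per kilobase of exon, the 3 genes summed to 24.9 ± 2.54 CPM in control and 25.4 ± 3.70 CPM in mutant libraries (SD, n = 3 each). The share of Adamts2 in this sum was 41.0%, 32.0% and 32.5% in control and 41.3%, 54.1% and 59.0% in mutant replicates 1, 2 and 3. That of Adamts14 was 39.9%, 51.0% and 46.5% in control and 39.7%, 27.6% and 27.4% in mutant replicates. Adamts2 made up most of the sum in mutant replicates 2 and 3, while mutant replicate 1 differed little from control replicate 1. The log2 ratio of Adamts2 to Adamts14 counts, which needs no scaling between libraries, was 0.46 ± 0.37 in control and 1.56 ± 0.57 in mutant libraries, a difference of 1.10. This ratio pairs the gene that rose with the gene that fell, and is given as a description, without its p.

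**Figure D2:**
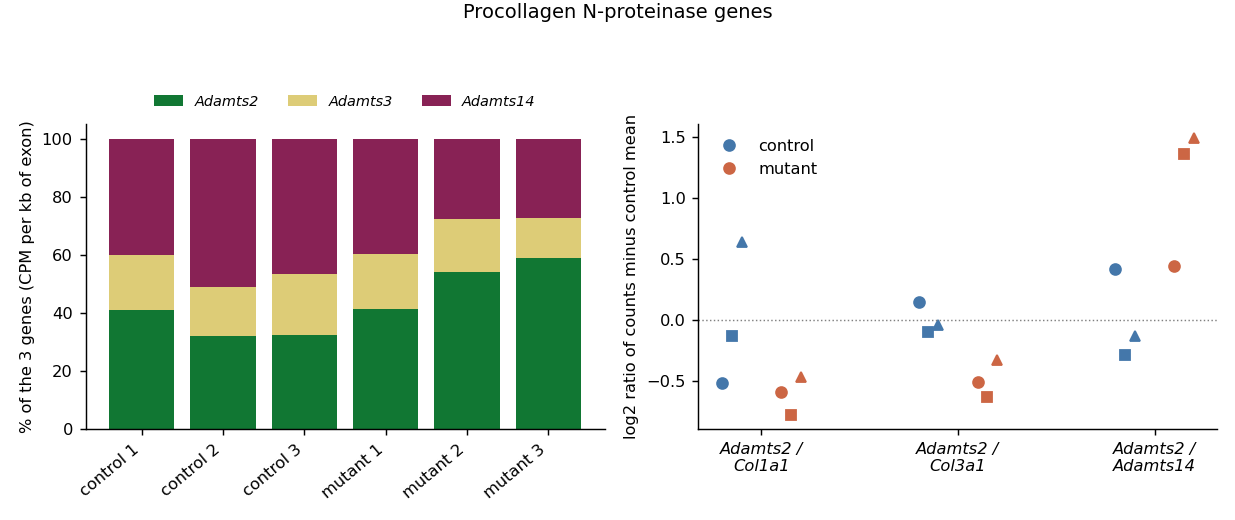
Left, share of each of the 3 N-proteinase genes in their summed CPM per kilobase of exon (vertical axis, percent) in each library. Right, log2 ratio of Adamts2 counts to those of Col1a1, Col3a1 and Adamts14 (vertical axis, difference from the control mean), 1 point per library, with circles, squares and triangles for replicates 1, 2 and 3. Mutant replicates 2 and 3 held 54.1% and 59.0% of the sum in Adamts2, and the ratio of Adamts2 to Col3a1 was lower in each mutant library than in any control library.

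Of 6 genes for the procollagens that these enzymes cut, 4 rose at an unadjusted p under 0.05 (Col1a1, Col3a1, Col5a1 and Col5a2) and 0 fell, with a median log2 fold change of 0.87. Over all genes tested 2.89% rose and 4.32% fell by this rule, the background for the counts of gene lists below. The rise of collagens in these data was known when the list was made, so it is not independent evidence of a direction. Col3a1, a chain of the fibrous type III collagen, was at 2043, 1954 and 1568 CPM in control and 2753, 4389 and 4633 CPM in mutant replicates 1, 2 and 3. The log2 ratio of Adamts2 to Col3a1 counts was -4.36, -4.61 and -4.55 in control and -5.02, -5.14 and -4.84 in mutant replicates, a difference of -0.49, likewise given without its p. Every mutant library had less Adamts2 per Col3a1 transcript count than any control library. To Col1a1, a chain of type I collagen, the log2 ratio of Adamts2 was -6.50 ± 0.59 in control and -7.11 ± 0.16 in mutant libraries, and the groups overlapped. The log2 ratio of Adamts14 to Col1a1 was -6.96 ± 0.87 in control and -8.67 ± 0.60 in mutant libraries, a difference of -1.71. By replicate 1, 2 and 3 it was -7.90, -6.80 and -6.19 in control and -7.99, -9.10 and -8.92 in mutant libraries. This ratio sets a gene called lower against a gene called higher, and is given as a description, without its p.

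At the other end of the procollagen, the C-propeptide is removed by Bmp1 and its relatives, helped by the enhancers Pcolce and Pcolce2. Of 5 such genes, 1 rose and 1 fell, but without the filter on low counts edgeR called 1, and limma-voom called 3. Pcolce rose from 286 ± 26.5 to 498 ± 94.1 CPM (log2 fold change 0.80, SE 0.21, edgeR unadjusted p = 0.00289, adjusted p = 0.626). Pcolce2 fell from 459 ± 49.8 to 334 ± 18.8 CPM (log2 fold change -0.46, SE 0.19, edgeR unadjusted p = 0.0325, adjusted p = 0.676). Both enhancers had non-overlapping groups. Bmp1 itself was at 238 ± 64.5 CPM in control and 313 ± 19.6 CPM in mutant libraries (edgeR unadjusted p = 0.107).

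Markers of tendon and outer annulus, the collagen I-rich fibrous tissue of the disc, had the same order over the libraries as Adamts2 when summed with Col1a1, which holds most of the sum. Their 7 genes summed to 16853, 12096 and 6718 CPM in control and 15292, 24775 and 25208 CPM in mutant replicates 1, 2 and 3, and 3 of 7 were higher in mutant libraries at an unadjusted p under 0.05. Without Col1a1 the sums were 4023, 4202 and 2868 CPM in control and 3770.1, 5329.5 and 5024 CPM in mutant replicates, and that order no longer held, with mutant replicate 1 below control replicates 1 and 2 and mutant replicate 2 above mutant replicate 3. Markers of hypertrophic chondrocytes summed to 1296 to 2483 CPM in control and 1122 to 1449.7 CPM in mutant libraries, with 3 of 6 lower at an unadjusted p under 0.05 beside Adamts14. The part of these cells in the changes of Adamts2 and Adamts14 was not tested.

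Of the 5 proteoglycanase genes described here, 0 passed an unadjusted p of 0.05 in edgeR as described above, with all 6 libraries and the filter on low counts, or in DESeq2. Without that filter edgeR called 1 (Adamts1), compared with 8.62% of all genes in that fit, and limma-voom called 1 (Adamts15). With the filter, edgeR called both of these genes once control replicate 1 was left out, and Adamts1 with replicate number as a block. Adamts4 and Adamts5 are the principal aggrecanases of cartilage. Adamts4 (chr1:171250421-171260637) was at 5.03, 4.89 and 5.08 CPM in control and 5.58, 8.41 and 6.37 CPM in mutant replicates 1, 2 and 3. All mutant libraries were higher than all control libraries, but with only 44 to 103 counts per library the 95% exact Poisson interval of mutant replicate 1, 4.13 to 7.37 CPM, covered every control value, while that of mutant replicate 2, 6.86 to 10.2 CPM, lay above all control intervals. The log2 fold change was 0.44 (SE 0.32, edgeR unadjusted p = 0.198, adjusted p = 0.790). With 1 library left out it ran from 0.27 without mutant replicate 2 to 0.60 without mutant replicate 1.

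Adamts5 (chr16:85856173-85901828) was at 12.5, 9.77 and 13.4 CPM in control and 7.85, 20.6 and 12.9 CPM in mutant replicates 1, 2 and 3. The mutant libraries held both the lowest and the highest value. The log2 fold change was 0.22 (SE 0.33, edgeR unadjusted p = 0.531), and it turned to -0.19 without mutant replicate 2.

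Adamts1 (chr16:85793827-85803113), which cuts versican and aggrecan and is inducible in many cells, lies 53059 bases from Adamts5 on the same strand. It was at 24.5, 15.2 and 9.93 CPM in control and 41.9, 20.2 and 16.8 CPM in mutant replicates 1, 2 and 3. Mutant replicate 1, which had the least Adamts5 of the 6 libraries, had the most Adamts1. The log2 fold change was 0.67 (SE 0.39, edgeR unadjusted p = 0.115, adjusted p = 0.746). It was 0.68 without the filter on low counts (edgeR unadjusted p = 0.0127), 1.09 without control replicate 1 (edgeR unadjusted p = 0.0169) and 0.20 without mutant replicate 1. Immediate early genes, which are induced within minutes of stimulation, summed to 436 to 590.2 CPM in control libraries and to 1590.5, 687 and 829.9 CPM in mutant replicates 1, 2 and 3. Of these 10 genes, 9 were higher in mutant libraries at an unadjusted p under 0.05, and mutant replicate 1 was the highest library for them as for Adamts1. Markers of neutrophil precursors summed to 153 CPM in mutant replicate 1, compared with 16.1 to 58.8 CPM in the other libraries. Those of macrophages summed to 146 CPM there, compared with 61.6 to 86.7 CPM. This library also had the most reads not aligned, 18.9% compared with 12% to 15.2%. The part of these genes, cells and reads in the values of Adamts1 was not tested.

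Adamts15 (chr9:30899155-30922452), a versican-cutting enzyme, was at 6.10, 3.33 and 4.85 CPM in control and 8.19, 7.43 and 7.44 CPM in mutant replicates 1, 2 and 3. The groups did not overlap, and the mutant libraries were close to each other. With 30 to 91 counts per library, the log2 fold change was 0.69 (SE 0.33, edgeR unadjusted p = 0.0655, adjusted p = 0.704). It reached an unadjusted p of 0.0226 in limma-voom with quality weights and of 0.0297 in edgeR without control replicate 1. Adamts8, which lies 20109 bases away on the opposite strand, was at 4.21 ± 1.96 CPM in control and 2.35 ± 1.29 CPM in mutant libraries (log2 fold change -0.82, SE 0.59).

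Adamts9 (chr6:92772699-92943492), a versicanase of wide expression, was at 21.6, 14.0 and 7.66 CPM in control and 11.9, 17.6 and 7.76 CPM in mutant replicates 1, 2 and 3. The groups overlapped fully, with a log2 fold change of -0.20 (SE 0.39, edgeR unadjusted p = 0.620) that turned to 0.24 without control replicate 1 and to 0.05 without mutant replicate 3. Its exons overlap A730049H05Rik on the opposite strand by 1381 bases, a gene with 255 counts compared with 820 for Adamts9. Whether strand was used in counting is not given in the sources used here, so how reads in the shared bases were assigned is not known.

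Summed per kilobase of exon, the 5 proteoglycanases reached 8.85, 6.04 and 5.15 CPM in control and 11.4, 9.37 and 6.92 CPM in mutant replicates 1, 2 and 3. The groups overlapped, and Adamts1 made up 36.3% to 52.2% of this sum in control and 40.8% to 69.5% in mutant libraries. Acan, which encodes aggrecan, was at 5462, 5359 and 4654 CPM in control and 5054, 3565 and 4007 CPM in mutant replicates (log2 fold change -0.29, SE 0.27, edgeR unadjusted p = 0.299). The log2 ratio of Adamts4 to Acan counts was -10.08, -10.10 and -9.84 in control and -9.82, -8.73 and -9.30 in mutant replicates, a difference of 0.73 (p = 0.10 in a two-sided exact permutation test, the smallest that 3 libraries against 3 allow). Permutation p-values were computed for 9 ratios, those given above without a p included, and the smallest p adjusted over the 9 was 0.180. The log2 ratio of Adamts4 to Adamts5 was -1.24 ± 0.21 in control and -0.93 ± 0.41 in mutant libraries, with overlap (p = 0.30, two-sided exact permutation test). For Adamts15 to Acan the log2 ratio was -10.12 ± 0.46 in control and -9.08 ± 0.18 in mutant libraries, a difference of 1.04 (p = 0.10, two-sided exact permutation test). That of Adamts5 to Acan overlapped, at -8.77 ± 0.33 and -8.35 ± 0.95 (p = 0.60, two-sided exact permutation test). The mutant libraries with the higher ratios also had less Acan.

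Of 7 proteoglycan substrates, 1 rose and 0 fell, with a median log2 fold change of 0.25. The gene that rose was Bcan, which encodes the brain proteoglycan brevican, from 3.45 ± 1.44 to 6.79 ± 1.53 CPM (log2 fold change 0.98, SE 0.42, edgeR unadjusted p = 0.0423). With library size alone 0 of the 7 were called, while DESeq2 called 2. Of 6 markers of neurons and glia tested, 2 were higher in mutant libraries at an unadjusted p under 0.05. Their median log2 fold change was 1.31, and their part in the value of Bcan was not tested. Vcan, for versican, was at 227 ± 78.0 CPM in control and 188 ± 23.3 CPM in mutant libraries (edgeR unadjusted p = 0.326).

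Adamts10 (chr17:33524204-33553782) binds fibrillin and is mutated in Weill-Marchesani syndrome, a disorder of short stature and stiff joints. It had the highest level of the Adamts genes per kilobase of exon, and its expression was 169, 138 and 80.9 CPM in control and 199.7, 147 and 171 CPM in mutant replicates 1, 2 and 3. Control replicate 3 was the lowest library and the remaining 5 overlapped, giving a log2 fold change of 0.42 (SE 0.26, edgeR unadjusted p = 0.145, adjusted p = 0.773). Without control replicate 1 it was 0.68 (edgeR unadjusted p = 0.0248), and without control replicate 3 it was 0.17. Fbn1, for fibrillin-1, was at 207 ± 44.4 CPM in control and 263 ± 35.6 CPM in mutant libraries (edgeR unadjusted p = 0.131).

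Adamts12 (chr15:11064790-11349231) can cut cartilage oligomeric matrix protein, the product of Comp. It was at 19.2, 15.1 and 22.8 CPM in control and 14.7, 21.5 and 18.2 CPM in mutant replicates 1, 2 and 3. The libraries overlapped and the log2 fold change was -0.07 (SE 0.23, edgeR unadjusted p = 0.765), or 0.10 without control replicate 3 or mutant replicate 1. Comp was at 8056 ± 2312 CPM in control and 6116 ± 976 CPM in mutant libraries (edgeR unadjusted p = 0.233). Of the 5 substrates that are neither collagens nor these proteoglycans, 2 fell and 0 rose, the matrilins Matn3 (log2 fold change -0.78, SE 0.28, edgeR unadjusted p = 0.0178) and Matn4 (log2 fold change -0.59, SE 0.25, edgeR unadjusted p = 0.0403).

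**Figure D3:**
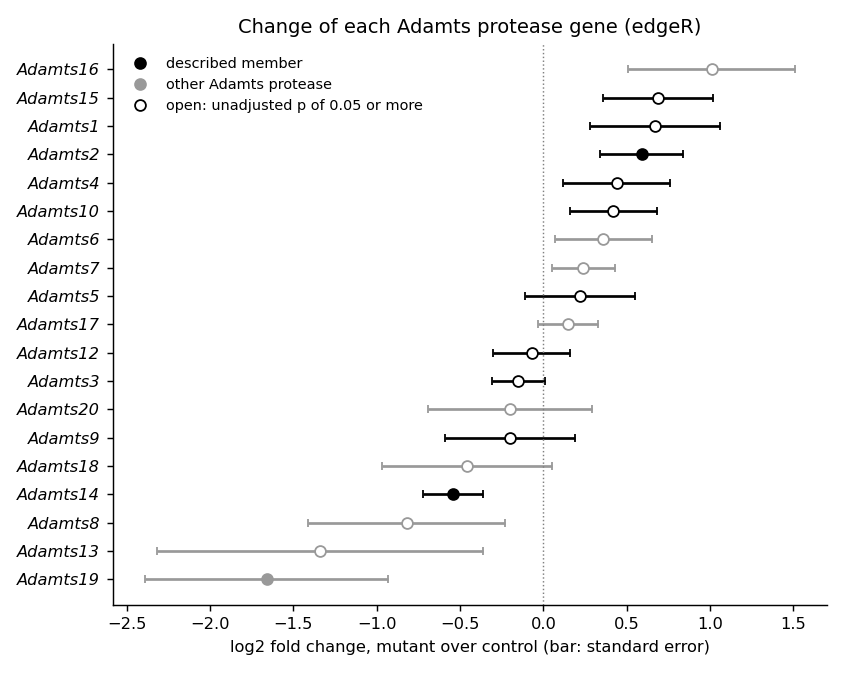
Log2 fold change of mutant over control (horizontal axis, bars of 1 standard error) for 19 Adamts protease genes, in black for the 10 described and in grey for the other 9, with filled points at an unadjusted p under 0.05 from edgeR. The values of the 10 ran from -0.54 for Adamts14 to 0.69 for Adamts15, and filled points among them were Adamts2 and Adamts14.

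Of the other 9 Adamts proteases, 0 rose and 1 fell at an unadjusted p under 0.05, with a median log2 fold change of -0.20. The gene was Adamts19, with 4 to 69 counts per library, at 3.74 ± 2.01 CPM in control and 1.15 ± 1.05 CPM in mutant libraries with overlap (log2 fold change -1.66, SE 0.73, edgeR unadjusted p = 0.0470). Adamts7, which like Adamts12 can cut the Comp product, was at 30.6 ± 3.30 CPM in control and 36.0 ± 7.24 CPM in mutant libraries, and Adamts6, a relative of Adamts10, was at 19.4 ± 5.27 and 24.9 ± 9.22 CPM.

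Levels were compared between genes per kilobase of exon. Adamts10 led at 15.7 ± 5.42 CPM per kilobase in control libraries, followed by Adamts14 at 11.4 ± 1.93 and Adamts2 at 8.79 ± 1.75, each with overlapping libraries next to its neighbour. In mutant libraries Adamts2, at 13.3 ± 4.11, stood above Adamts14, at 7.86 ± 0.973. Over all 6 libraries, these 3 genes stood above the rest of the family, the values of Adamts14 lying above those of Adamts7 in every library. Adamts3 at 4.48, Adamts1 at 4.04 and Adamts12 at 1.70 CPM per kilobase came next among the 10 genes, with overlap between Adamts3 and Adamts1. Adamts4 at 1.22, Adamts5 at 1.19, Adamts9 at 0.893 and Adamts15 at 0.600 were lowest, and each overlapped the next in the order of all 19 genes. The aggrecanases Adamts4 and Adamts5 thus ranked above 21.4% and 20.9% of the 15882 genes with a length, and Adamts10 above 85.7%.

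**Figure D4:**
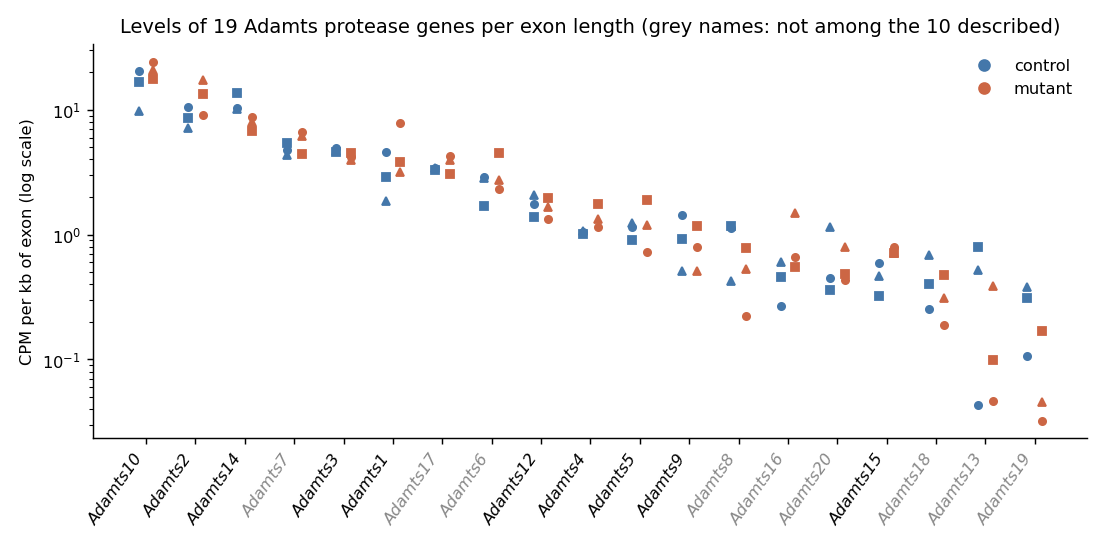
CPM per kilobase of exon (vertical axis, log scale) of 19 Adamts protease genes in order of their mean, 1 point per library in blue for control and orange for mutant, with circles, squares and triangles for replicates 1, 2 and 3. Adamts10, Adamts2 and Adamts14 lead, and Adamts4 and Adamts5 lie near 1 CPM per kilobase.

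Inhibitors of these enzymes showed no call, with 0 of 6 genes at an unadjusted p under 0.05 in edgeR, DESeq2 or limma-voom, and a median log2 fold change of 0.24. Timp2 was higher in every mutant library, as were 5.45% of all genes, at 354 ± 30.3 CPM in control and 435 ± 41.8 CPM in mutant libraries (edgeR unadjusted p = 0.141). Timp3, the main tissue inhibitor of aggrecanases, was at 382, 252 and 266 CPM in control and 323, 333 and 401 CPM in mutant replicates 1, 2 and 3 (log2 fold change 0.23, SE 0.22, edgeR unadjusted p = 0.307). The log2 ratio of Adamts5 to Timp3 counts was -4.64 ± 0.31 in control and -4.78 ± 0.69 in mutant libraries (p = 0.80, two-sided exact permutation test).

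Of 10 tested genes for activation, secretion and clearance, 0 rose and 1 fell, but without the filter on low counts edgeR called 0, and limma-voom called 2. B3glct, which adds glucose to the O-fucose of thrombospondin repeats, fell from 18.7 ± 3.12 to 13.2 ± 0.581 CPM (log2 fold change -0.50, SE 0.20, edgeR unadjusted p = 0.0334, adjusted p = 0.676), and its groups did not overlap. Pcsk6, a proprotein convertase that activates aggrecanases, was higher in every mutant library, at 337 ± 51.8 and 452 ± 27.8 CPM (log2 fold change 0.42, SE 0.19, edgeR unadjusted p = 0.0533). So was Sdc1 of the same list, at 57.0 ± 5.43 and 69.7 ± 3.63 CPM (edgeR unadjusted p = 0.0918). Lrp1, the receptor that takes up Adamts4 and Adamts5, was at 1075 ± 178 CPM in control and 1129 ± 295 CPM in mutant libraries. Among 10 regulators known to induce aggrecanases, 6 were tested and 1 fell, Runx2 (log2 fold change -0.55, SE 0.21, edgeR unadjusted p = 0.0282). Transcripts of the inflammatory cytokines Il1b, Tnf and Il6 had 12, 1 and 12 counts over all 6 libraries and were not tested.

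**Figure D5:**
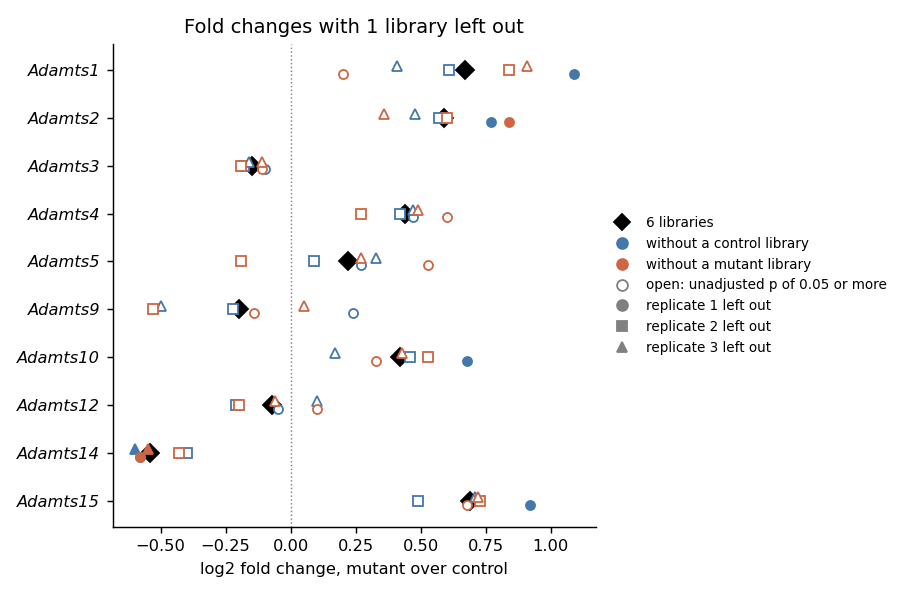
Log2 fold change of mutant over control (horizontal axis) of the 10 genes with all 6 libraries (diamonds) and with 1 library left out, in blue for a control and orange for a mutant library, circles, squares and triangles marking which replicate, and filled points at an unadjusted p under 0.05 from edgeR. Without control replicate 1 there are 5 filled points, and without control replicate 2 or mutant replicate 2 there are none.

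The number of Adamts genes called depended on single libraries. Without control replicate 1, the library with muscle, 5 of 10 genes passed an unadjusted p of 0.05 in edgeR (Adamts1, Adamts2, Adamts10, Adamts14 and Adamts15), compared with 14.1% of all genes tested in that fit. Without mutant replicate 1, Adamts2 and Adamts14 were called, compared with 4.76% of all genes. Adamts14 alone was called without control replicate 3, compared with 3.77%, and without mutant replicate 3, compared with 5.10%. Without control replicate 2 or mutant replicate 2, 0 of 10 passed, compared with 5.59% and 9.76% of all genes. In each of these fits, 0 of 10 passed after adjustment over all genes. The calls in the other gene lists also moved with single libraries. Among procollagens, 3 to 5 of 6 were called with any 1 library left out, and among C-proteinases and enhancers 1 or 2 of 5. Among proteoglycan substrates, where Bcan was the call, 2 of 7 were called without control replicate 1 or mutant replicate 1 and 0 without any of the other 4 libraries. Among activation, secretion and clearance genes, where B3glct was the call, 2 were called on leaving out control replicate 1, 1 on leaving out control replicate 2 and 0 on leaving out any of the other 4. Of the 5 other substrates, the list with the matrilins, 2 were called without control replicate 2, control replicate 3 or mutant replicate 1, and 0 once control replicate 1, or mutant replicate 2 or 3, was left out. Among regulators 2 were called without control replicate 1 and 0 without mutant replicate 1 or mutant replicate 3. Among inhibitors, leaving out control replicate 1 gave 1 call of 6, and leaving out any of the other 5 libraries gave 0. Of the other 9 Adamts proteases, 0 were called once control replicate 2, or mutant replicate 1 or 3, was left out, and 1 or 2 without any of the other 3 libraries.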

How the data were processed

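Poly(A) RNA of 6 pooled disc samples was sequenced in paired ends. The authors deposited raw counts per gene symbol for each library. Their methods name Cutadapt and HISAT2 with GRCm38.88, while the submitters' processing notes list STAR 2.5.3a and HTSeq, and the strand setting is not given in the sources used here. The authors' table of their own comparison, which holds fold changes, p-values and rescaled counts of genes chosen on p, was not used. Genes held 40.4% to 44.2% of reads, and lines that name no gene, which held the rest, were left out. The methods' FPKM test could not be run on counts.

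The quasi-likelihood test of edgeR 4.0.16 (R 4.3.3) was run on all genes, mutant against control (n = 3 each), with TMM scaling and filterByExpr at its count minimum of 10, with Benjamini-Hochberg adjustment over 16152 genes. A standard error is the log2 fold change divided by the square root of F. Alternatives were RLE scaling, library size alone, no filter, DESeq2 1.42.0, voom of limma 3.58.1 with quality weights, a replicate block and leaving out each library. The fits were tested on simulated data. Positions and exon lengths are those of GENCODE M21 on GRCm38, and 98.3% of genes tested had a length. The 9 ratios of counts were compared by two-sided exact permutation tests, whose p is not printed for ratios of genes that had themselves been called, and Poisson intervals cover counting error only. The labels call the pools biological replicates but do not say how litters were divided among them, and p-values measure the spread between these pools. The genes and lists were chosen with earlier results of these data known. All 10 genes are named, listed genes are named where their unadjusted p was under 0.05 or where they are a substrate, partner, inhibitor or neighbour, and for Adamts2, Adamts4 and Adamts5 the 3 genes of most similar profile. A result that needs a withheld item is not reported here.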

Additional observations from a re-analysis of the deposited data

How the results depend on the processing

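Over 12 alternatives for each of the 10 Adamts genes, 101 of 120 fold changes kept their direction and their side of an unadjusted p of 0.05, 8 lost a call, 6 gained one and 5 turned. The sign turned only where a library was left out. Leave-one-out values ran from -0.19 to 0.53 for Adamts5, below 0 without mutant replicate 2. They ran from -0.53 to 0.24 for Adamts9, above 0 without control replicate 1 or mutant replicate 3, and from -0.21 to 0.10 for Adamts12, above 0 without control replicate 3 or mutant replicate 1. The cause was not tested.

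The number of Adamts genes at an unadjusted p under 0.05 was 2. It became 1 with library size alone (7.57% of all genes), 3 without the filter (8.62%) and with limma-voom (9.14%), and 0 to 5 with a library left out. Over all genes this count was 1164, and 2276 without the filter, where more genes were tested, and 618 to 2427 with a library left out. At an adjusted p under 0.05 there was 1 gene in edgeR, 245 without the filter, 52 with DESeq2, 0 with limma-voom, 0 with the replicate block and 0 to 31 with a library left out. Same-numbered libraries correlated in their deviations at 0.16, -0.13 and 0.10, and the labels do not tie the numbers to litters, so they were not taken as pairs. With the replicate block, 2 Adamts genes (and 6.20% of all genes) were called, Adamts14 and Adamts1 (log2 fold change 0.65, unadjusted p = 0.0138), and Adamts2 was not (log2 fold change 0.57, unadjusted p = 0.0801). Under that block 1 of the C-proteinases and enhancers was called. Of the proteoglycan substrates and the activation, secretion and clearance genes, 0 were called. Adamts4 and Adamts15 had the fewest counts of the 10 genes, at 30 to 103 per library.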

Other observations

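Adamts-like proteins share the thrombospondin repeats of the family but lack the protease. Of 7 such genes tested, papilin included, 0 passed an unadjusted p of 0.05 in edgeR with all libraries and the filter on low counts. DESeq2, limma-voom and edgeR without the filter called 1 each, as did edgeR without control replicate 1, control replicate 2, mutant replicate 1 or mutant replicate 2. Adamtsl2, which binds latent TGF-beta binding proteins, had the most counts, at 251 ± 100.3 CPM in control and 215 ± 18.7 CPM in mutant libraries. Adamtsl4 was at 30.9 ± 4.34 CPM in control and 43.6 ± 12.4 CPM in mutant libraries (log2 fold change 0.50, SE 0.23, edgeR unadjusted p = 0.0534).

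Among 12232 genes with a mean of at least 5 CPM, the profile over the 6 libraries was compared by the root mean square difference of log2(CPM + 0.5), centred on each gene's mean. The genes most like Adamts4 were Afap1, Ano1 and Fbxl20, with differences of 0.06, 0.07 and 0.08. Those most like Adamts5 were Mpp7, Phip and Pard3b, with differences of 0.07, 0.11 and 0.12. Gys1, Gm13066 and Gm17690 were most like Adamts2, each with a difference of 0.13, where the profile of Adamts2 itself spanned 1.27. These are given as a description over 6 libraries.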
